A study of Mus musculus with 4 samples.

Results

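A set of 10 genes of the prostanoid pathway was followed through the cell classes of mouse hippocampus. These are 10 of the 55403 features counted, namely the cyclooxygenases Ptgs1 and Ptgs2, the terminal synthases Ptgds, Hpgds, Ptges, Ptgis and Tbxas1, and the receptors Ptger3, Ptger4 and Ptgfr. Each was taken by its symbol, and the set was chosen by the UMI counts of Ptgis in mural cells, which were already known. Its mural level is therefore given as a description, without a test.

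Prostanoids are short-range lipid signals made from arachidonic acid. A cyclooxygenase converts arachidonic acid to prostaglandin H2, and a terminal synthase then turns this intermediate into prostaglandin D2, prostaglandin E2, prostacyclin or thromboxane, which act on G-protein-coupled receptors of nearby cells. In brain the pathway is known for fever, sleep, pain and the control of vessel tone, and its enzymes are divided among neurons, glia, meninges and vessels, so that the maker of an intermediate and the cell that answers the product need not be the same.

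The study profiled nuclei of frozen hippocampus by droplet-based sequencing with a 10x Genomics 3′ kit. PS19 mice carry human MAPT, the tau gene, with the P301S mutation in the 1N4R isoform, driven by the prion promoter (Prnp), on a B6;C3 background. TG_PS19 mice come from a cross of PS19 with the SORLA-Rosa26 line, in which a CMV/β-actin promoter overexpresses the sorting receptor SORLA. WT mice carry neither transgene by their label. There was 1 WT library, 2 PS19 libraries and 1 TG_PS19 library, each from tissue pooled before lysis. The series title calls the mice aged, and age, sex and pool sizes are not given in the sources used here. All p-values rest on the spread between the PS19 libraries, which may be technical. The variance of each gene was drawn toward a trend over the genes of its class. The lone WT and TG_PS19 libraries were assumed to vary like the PS19 pair.

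The libraries held 4643 to 12762 barcodes and 20064025 to 48670533 unique molecular identifiers (UMIs), with 2643 to 3708.5 UMIs at the median nucleus. Between 5 and 32 barcodes were shared by any pair of libraries. After filtering, 11459 nuclei remained in WT, 4467 and 4729 in the PS19 libraries and 8964 in TG_PS19. Nuclei with Y-linked UMIs and no Xist numbered 7805, 3200, 3572 and 2173 in this order, and nuclei with Xist alone numbered 27, 5, 6 and 4562, so that TG_PS19 stood apart in holding many nuclei of both kinds. Cell classes were rebuilt from marker genes, and 11 units with at least 50 nuclei in every library were tested. Of these, 10 carry a class name, and 1 is a cluster with all 8 oligodendrocyte markers raised that is led by Enpp6 and Anln and was left unnamed. Excitatory neurons join CA1, CA3 and other pyramidal clusters, and mural cells join a pericyte cluster with a smooth muscle cluster. Levels are given as CPM, the UMIs of a gene per 1000000 UMIs of a class in a library. They carry exact 95% Poisson intervals for counting error only, and PS19 means are given ± SD (n = 2). Gene positions are those of GENCODE M21 on mouse build GRCm38, and the build behind the counts is not given in the sources used here.

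**Figure D1:**
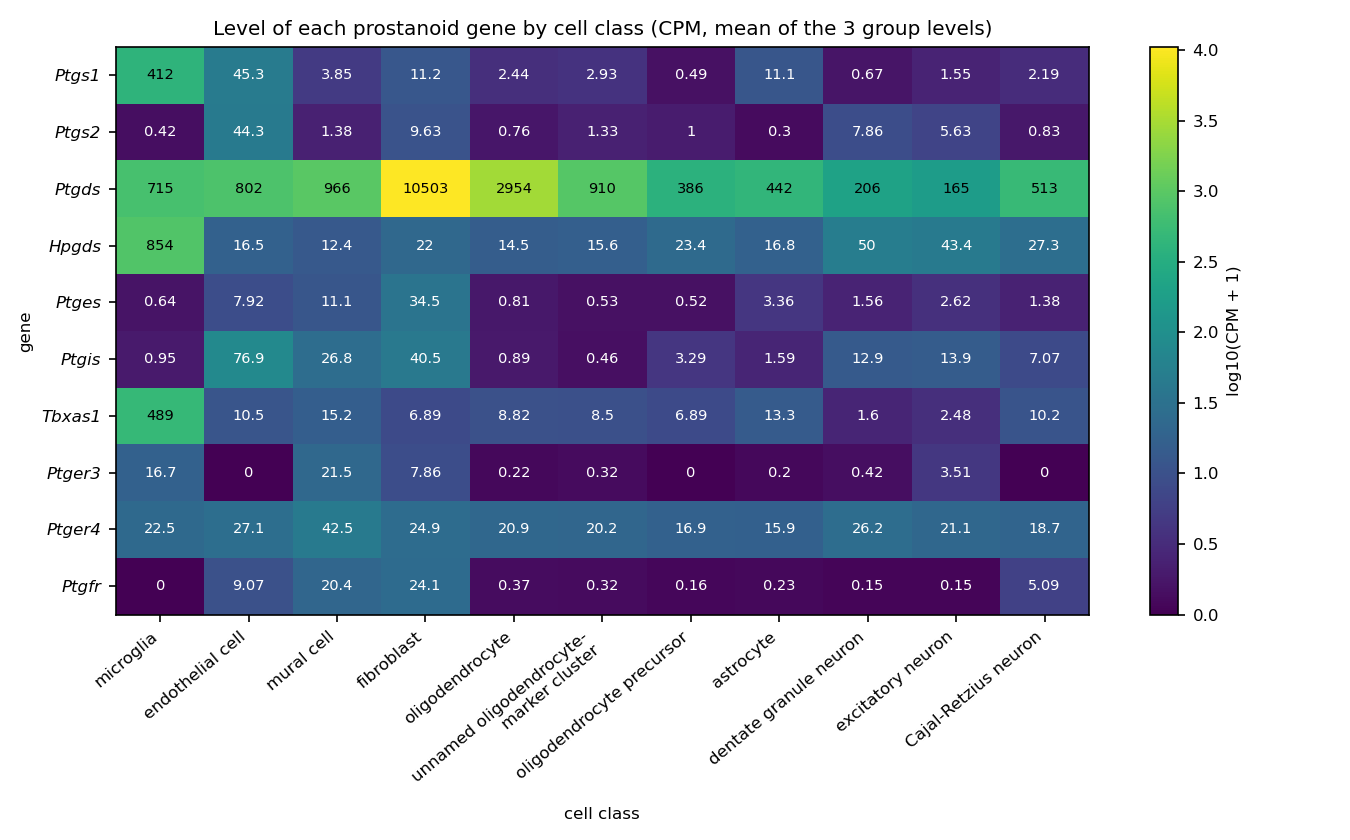
Level of the 10 genes (rows) in the 11 tested units (columns), in CPM averaged over the 3 group levels; color shows log10(CPM + 1). Ptgs1, Hpgds and Tbxas1 have their highest value in microglia, Ptgds, Ptges and Ptgfr in fibroblasts, Ptgs2 and Ptgis in endothelial cells, and Ptger3 and Ptger4 in mural cells.

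The map of mean levels by class shows that the genes divided among 4 classes by their highest level. The number of units in which a gene passed the filter on low counts ranged from 11 of 11 for Ptgds to 1 of 11 for Ptgfr. Ptger4 passed in 10, Hpgds in 9, Tbxas1 in 8, Ptgs1 in 7, Ptgis in 6, Ptgs2 and Ptges in 4 each, and Ptger3 in 2. Levels were compared between classes for the same gene, not between genes.

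Ptgis (chromosome 2, 167191805 to 167240604, minus strand) encodes prostacyclin synthase, whose product relaxes vessels and restrains platelets. In mural cells, the contractile cells that wrap vessels, the 305 WT nuclei had 0 UMIs, the 141 nuclei of PS19 replicate 1 had 24, the 145 nuclei of PS19 replicate 2 had 18, and the 186 TG_PS19 nuclei had 2. These counts gave 0 CPM in WT, where 3 counts would be 6.92 CPM, and 7.93 CPM (0.960 to 28.6) in TG_PS19. The PS19 replicates stood at 87.6 CPM (interval 56.1 to 130) and at 57.4 CPM (interval 34.0 to 90.8). Both PS19 libraries were high, and the WT and TG_PS19 libraries were low.

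All 24 and all 18 PS19 UMIs lay in the smooth muscle cluster, which held only 14 and 11 PS19 nuclei. Of these nuclei 10 and 7 had Ptgis, and every one of them also had Acta2, the smooth muscle actin gene, while none had the fibroblast gene Dcn. The smooth muscle list was present in full in the PS19 nuclei of the cluster, with 8 of 8 markers detected and a sum of 8057 and 9767 CPM. The list of perivascular macrophages had 7 of 7 markers at 0 there, and the fibroblast list had 4 and 6 of 8 markers at 0 and sums of 616 and 826 CPM. In the pericyte cluster Ptgis had 0 UMIs in 299 WT nuclei, 0 in 127 and 0 in 134 PS19 nuclei, and 1 in 183 TG_PS19 nuclei. The PS19 mural UMIs of Ptgis thus came from smooth muscle nuclei, and WT and TG_PS19 had only 6 and 3 of these. Ptgis was found in 0 of the 6 and 1 of the 3. The part of the number of smooth muscle nuclei in the mural level was not tested. The 6 WT nuclei held 10141 UMIs in all, at which 3 counts would be 296 CPM, so a WT level below that was not detectable.

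The number of WT smooth muscle nuclei itself was set by the removal of nuclei with high doublet scores. This step took 12 of 19 WT nuclei from the smooth muscle cluster and 0 of 14, 0 of 12 and 0 of 4 in the other libraries. The removed WT nuclei had a median of 2070.5 UMIs, beside 1751 in the WT nuclei that were not scored high, and 7 of the 12 carried 10 Ptgis UMIs. With these nuclei kept, Ptgis in smooth muscle stood at 221 CPM (106 to 407) in WT, 548 CPM (351 to 815) and 481 CPM (285 to 760) in PS19, and 139 CPM (3.53 to 777) in TG_PS19. The WT interval overlapped those of both PS19 libraries, and the absence of Ptgis from WT mural cells no longer held. For mural cells as a whole the WT level became 16.4 CPM. The plot of Ptgis in the mural clusters sets both counts side by side.

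Outside mural cells the endothelium led for Ptgis, at 56.0 CPM (38.0 to 79.5) in WT, 80.7 and 75.7 CPM in the PS19 pair and 96.5 CPM (67.6 to 134) in TG_PS19. Within them the level was higher in the cluster led by Eln, Bmx and Mgp, genes of arterial endothelium and the vessel wall, at 165 CPM in WT, 298 and 272 CPM in the PS19 pair and 306 CPM in TG_PS19. Fibroblasts came next with 53.8 CPM in WT, 40.5 and 46.0 CPM in the PS19 pair and 24.5 CPM in TG_PS19. Their cluster led by Slc47a1 had 171 CPM in WT, 124 and 135 CPM in the PS19 pair and 90.8 CPM in TG_PS19. The fibroblast value of TG_PS19 against WT, −1.07 on the log2 scale (SE 0.39), did not pass the edgeR test (adjusted p 0.171), and Ptgis was called in no unit in any comparison. Across the 44 sums of 11 units and 4 libraries, the gene whose log2(CPM + 1) pattern was most like Ptgis was Tmtc1 (r = 0.858), followed by Vps13a (0.832) and Btg3 (0.819). Such correlations describe sums that share libraries and depth.

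Ptgs1 (chromosome 2, 36230426 to 36252272, plus strand), the constitutive cyclooxygenase, was highest in microglia. It had 460 CPM (418 to 504) in WT, 414 and 317 CPM in the PS19 pair (366 ± 68.9) and 410 CPM (365 to 460) in TG_PS19, which lay within the range of the PS19 pair. Its microglial log2 fold change was −0.34 (SE 0.16) in PS19 against WT, which did not pass the edgeR test (adjusted p 0.343). The second class was the endothelium with 57.8 CPM in WT, 24.2 and 40.7 CPM in the PS19 pair and 45.6 CPM in TG_PS19, and most of these UMIs lay in the cluster led by Vwf (29 of 32 in WT).

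Ptgs2 (chromosome 1, 150100031 to 150108227, plus strand), the inducible cyclooxygenase, was nearly absent from microglia, with 1 UMI in all 4 libraries together, found in PS19 replicate 1. Its first class was the endothelium, at 63.2 CPM (44.0 to 87.9) in WT, 28.3 and 46.6 CPM in the PS19 pair and 32.2 CPM (16.6 to 56.2) in TG_PS19. The intervals of WT and TG_PS19 overlapped. Within the endothelium the cluster led by Vwf, a gene of venous and large-vessel endothelium, held 32 of 35 WT UMIs. Dentate granule neurons had 8.62 CPM in WT, 11.6 and 7.91 CPM in the PS19 pair and 5.21 CPM (3.77 to 7.02) in TG_PS19, with a log2 fold change of −0.77 (SE 0.30) for TG_PS19 against PS19 that did not pass (edgeR adjusted p 0.0879). Ptgs2os, a transcript named for its position opposite Ptgs2, had the most similar pattern (r = 0.881), and whether the authors' counting used strand is not given in the sources used here.

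Hpgds, the hematopoietic prostaglandin D synthase (chromosome 6, 65117293 to 65144908, minus strand), and Tbxas1, thromboxane A synthase (chromosome 6, 38875404 to 39084585, plus strand), shared their first class with Ptgs1. In microglia Hpgds had 829 CPM (773 to 888) in WT, 851 and 858 CPM in the PS19 pair (854 ± 4.69) and 880 CPM (813 to 951) in TG_PS19. Tbxas1 had 512 CPM (469 to 559) in WT, 517 and 566 CPM in the PS19 pair (542 ± 35.2) and 414 CPM (369 to 464) in TG_PS19. Hpgds intervals overlapped in all 4 libraries, while the Tbxas1 value of TG_PS19 lay below both PS19 values. Neither gene was called in microglia in any comparison, and the lowest edgeR adjusted p was 0.363, for Tbxas1 in TG_PS19 against PS19, at −0.32 (SE 0.16). Tbxas1 overlaps Hipk2 on the opposite strand, so its values are uncertain while the strand setting is unknown.

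A further cluster of myeloid nuclei, led by Apobec1, Cd74 and Cd84 and with 7 of 8 microglial markers raised, was left out of the microglia. Its nuclei numbered 20 in WT, 87 and 91 in the PS19 libraries and 16 in TG_PS19. Tbxas1 there had 713 CPM in WT, 615 and 669 CPM in the PS19 pair and 628 CPM in TG_PS19, all above the microglial value of the same library. The Tbxas1 intervals of the cluster and of the microglia overlapped in each library. Ptgs1 was lower in the cluster, with 143 CPM in WT, 128 and 156 CPM in the PS19 pair and 0 UMIs in TG_PS19, where 3 counts would be 105 CPM. In the PS19 libraries, which hold most of these nuclei, the Ptgs1 intervals of the cluster ended at 184 and 211 CPM, and those of the microglia began at 354 and 272 CPM.

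**Figure D2:**
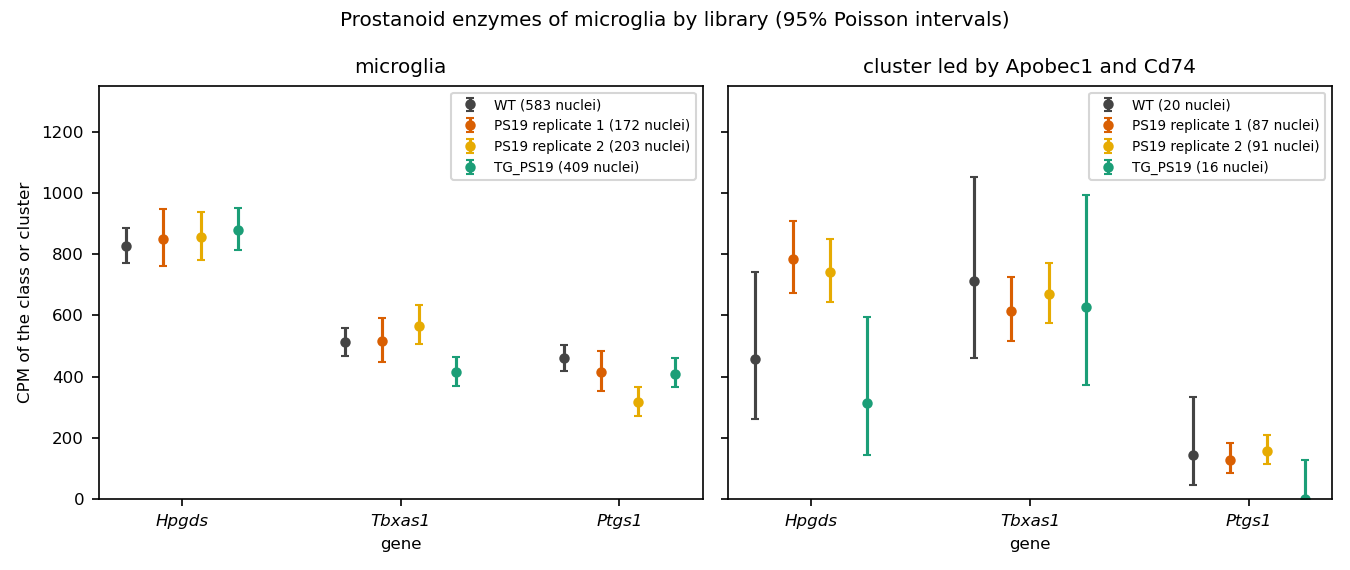
Hpgds, Tbxas1 and Ptgs1 in CPM (vertical axis) in microglia (left) and in the cluster led by Apobec1 and Cd74 (right); points are libraries and bars 95% Poisson intervals. Ptgs1 sits between 317 and 460 CPM in microglia and at or below 156 CPM in the other cluster, whose WT and TG_PS19 values rest on 20 and 16 nuclei.

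The start regions of these 3 genes are shown because the genes share their first class. The sequences are from RefSeq on mouse build GRCm38.p6, in which 9 of the 10 genes had an entry with 250 bases before the start. Capitals mark GAGGAA or its reverse complement TTCCTC, a core of the kind bound by ETS-family factors, with 12 bases on either side.

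Ptgs1, chr2:36230390-36230419, plus strand: aaggctggagcaGAGGAAgttggcggtcag

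Hpgds, chr6:65144762-65144791, minus strand: ggcttttaggtgGAGGAAgtggcctctggc

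Tbxas1, chr6:38918955-38918984, plus strand: ccctctgcttccTTCCTCtttataaagaaa

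The motif began 24, 49 and 19 bases before the RefSeq start, and the Hpgds and Tbxas1 windows overlap an exon of the gene in GENCODE M21, whose starts differ. In all 6 motifs were searched on both strands (GAGGAA above, TGACG of cyclic AMP response elements, the E-box CACGTG, the GC box GGGCGG, the TATA box TATAAA, and CACTTCC, also of ETS type), and GAGGAA was chosen for display after the matches were seen. It lay in 6 of the 9 members with an entry, also in Ptgs2, Ptges and Ptgfr, which were not highest in microglia. Of all 32851 RefSeq start regions of this length 23.3% hold it. In Hpgds it overlaps a match to CACTTCC on the other strand, and a match describes letters, not a site in use.

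By pattern over the 44 sums, Ptgs1 was most like Srgap2 (r = 0.923), Hpgds most like Gtf2h2 (0.956) and Tbxas1 most like Ctss (0.944). The microglial marker Cx3cr1 was also among the 3 genes most like Tbxas1 (0.930).

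Across the 10 genes, 61 pairs of gene and unit were tested in each comparison, Ptgis in mural cells left aside. In PS19 against WT 5 pairs were called with edgeR at an adjusted p of 0.05, all lower in PS19, where 2.35% of all pairs of genes and units were called. In TG_PS19 against PS19 8 pairs were called, all higher in TG_PS19, beside 4.17% of all pairs. In TG_PS19 against WT 2 pairs were called, 1 in each direction, beside 2.11%. An unadjusted p under 0.05 was found for 14, 22 and 16 pairs by edgeR. DESeq2 called 0 pairs in each comparison, with 4, 5 and 0 at an unadjusted p under 0.05. Shares over all genes are not given here for unadjusted p or for DESeq2. These counts are therefore not read as results about the set. The median log2 fold change of the 61 pairs was −0.17, 0.33 and −0.09 in this order, where the median of all genes stayed between −0.02 and 0.03 in every unit. The comparisons share the PS19 or the WT libraries, so the first and second directions are not independent. The background varied by unit, from 0.627% in endothelial cells to 5.82% in astrocytes among the units with a member called in PS19 against WT. For TG_PS19 against PS19 it was 3.97% in microglia, 9.11% in astrocytes, 9.31% in dentate granule neurons, 5.22% in excitatory neurons, 1.66% in fibroblasts and 3.83% in oligodendrocytes. All called pairs belonged to Ptgds, Hpgds and Ptger4.

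Ptgds (chromosome 2, 25466709 to 25470046, minus strand) encodes the lipocalin-type prostaglandin D synthase, a secreted protein of the cerebrospinal fluid known from meninges, choroid plexus and oligodendrocytes. Fibroblasts had the highest level in every library, at 8837 CPM in WT, 11426 and 7845 CPM in the PS19 pair (9636 ± 2532) and 13036 CPM in TG_PS19. Their cluster led by Nnat, with 15 to 30 nuclei a library, reached 28662 CPM in WT, 40896 and 29821 CPM in the PS19 pair and 34702 CPM in TG_PS19. Oligodendrocytes followed with 2984 CPM in WT, 3784 and 2899 CPM in the PS19 pair (3341 ± 626) and 2536 CPM in TG_PS19. No oligodendrocyte comparison was called, and 1 PS19 library lay above WT and the other below it. Apod, also a lipocalin gene, had the most similar pattern (r = 0.907).

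Both PS19 libraries lay below WT for Ptgds in every unit other than fibroblasts and oligodendrocytes. In 4 classes with less Ptgds the gene was called lower in PS19 than in WT. In microglia it had 946 CPM (886 to 1008) in WT, 542 and 412 CPM in the PS19 pair and 723 CPM (663 to 788) in TG_PS19. By edgeR it fell in PS19 against WT by 1.00, a log2 value (SE 0.14, adjusted p 1.22e-09) and rose in TG_PS19 against PS19 by 0.68 (SE 0.15, edgeR adjusted p 0.000350). Astrocytes had 571 CPM in WT, 409 and 294 CPM in the PS19 pair and 403 CPM in TG_PS19. The astrocyte value fell by 0.73 (SE 0.12, edgeR adjusted p 4.92e-07) in PS19 and rose in TG_PS19 against PS19 by 0.38 (SE 0.13, adjusted p 0.0370). That rise was 0.62 without PS19 replicate 1 and 0.16 without PS19 replicate 2, and it stayed called in 5 of 9 edgeR alternatives (highest adjusted p 0.311). The makeup of the astrocytes differed by group, since the cluster led by Myoc and Gfap held 234 of 2769 WT, 181 of 616 and 174 of 697 PS19, and 96 of 1647 TG_PS19 astrocytes. In the cluster led by Rorb, which held most astrocytes, Ptgds stood at 562 CPM in WT, 404 and 299 CPM in the PS19 pair and 409 CPM in TG_PS19.

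Dentate granule neurons had 270 CPM in WT, 195 and 150 CPM in the PS19 pair and 175 CPM in TG_PS19. Ptgds fell there by 0.64 (SE 0.10, edgeR adjusted p 8.00e-08) in PS19 and by 0.51 (SE 0.12, edgeR adjusted p 0.000645) in TG_PS19 against WT. Endothelial cells had 1053 CPM in WT, 609 and 495 CPM in the PS19 pair and 801 CPM in TG_PS19, and Ptgds fell there by 0.92 (SE 0.22, edgeR adjusted p 0.00796) in PS19. In the 4 classes called in PS19 against WT, both PS19 libraries lay below WT and PS19 replicate 2 lay below PS19 replicate 1. With class sums thinned to equal depth, the microglial fold changes were −1.09 and 0.68 and the endothelial one −0.90, close to the values above, but edgeR no longer called them (adjusted p 0.270, 0.416 and 0.859). With doublets kept, the endothelial value was −0.81 and that of granule neurons in TG_PS19 against WT −0.40, and neither was called (edgeR adjusted p 0.0537 and 0.144). Mural cells at −0.62 (edgeR adjusted p 0.171), oligodendrocyte precursors at −0.49 (adjusted p 0.243) and Cajal-Retzius neurons at −0.89 (adjusted p 0.362) did not pass. Nor did the unnamed unit at −0.30 (edgeR adjusted p 0.582) or excitatory neurons at −0.16 (adjusted p 0.777).

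The summed level of oligodendrocyte markers was, like Ptgds, lower in both PS19 libraries than in WT in 3 of these classes. The 8 oligodendrocyte markers, none of them at 0, summed in microglia to 1002 CPM in WT and 948 CPM in TG_PS19. The PS19 pair had 569 and 765 CPM, with the replicates in the opposite order to their Ptgds. Much of each microglial sum lay in its highest marker. This stood at 717 CPM for WT, 687 CPM for TG_PS19, 349 CPM for PS19 replicate 1 and 402 CPM for replicate 2. The microglial sum thus does not show how the other markers of the list moved. In astrocytes the sum was 567 CPM in WT, 413 and 277 CPM in the PS19 pair and 499 CPM in TG_PS19, and in dentate granule neurons it was 353 CPM, 246 and 231 CPM, and 290 CPM. In endothelial cells it was 1116 CPM in WT, 1179 and 742 CPM in the PS19 pair and 1485 CPM in TG_PS19, so that PS19 replicate 1 did not follow. The 8 fibroblast markers summed in astrocytes to 298 CPM in WT, 183 and 191 CPM in the PS19 pair and 283 CPM in TG_PS19. In granule neurons they summed to 31.1 CPM, 16.2 and 16.0 CPM, and 17.1 CPM. The highest fibroblast marker in astrocytes stood at 188 CPM for WT, 103 and 107 CPM for the PS19 pair and 195 CPM for TG_PS19. Such sums thus do not show how the other markers moved. In microglia the fibroblast sum of PS19 replicate 1 lay above that of WT. In endothelial cells those of both PS19 libraries did, at 408 and 288 CPM beside 278 CPM in WT. In oligodendrocytes themselves the oligodendrocyte sum stayed between 15641 and 17025 CPM. Ptgds UMIs were found in 77.2% of WT microglia, 64.5% and 65.0% of PS19 microglia and 66.7% of TG_PS19 microglia. Thinned to 1000 UMIs a nucleus, these shares were 63.7%, 37.1%, 29.7% and 51.4%. Dentate granule, excitatory and inhibitory neurons together, with Cajal-Retzius neurons left out, had 24.98%, 18.5%, 13.8% and 16.9%. Free RNA can give such shares in droplets, and its part in the lower PS19 levels was not tested. Microglia were 1 cluster here. At resolution 2.0 nuclei named microglia lay in a cluster led by Siglech, with 547 WT, 49 and 54 PS19 and 383 TG_PS19 nuclei. Another cluster so named, led by Ly86, had 42 WT, 203 and 229 PS19 and 27 TG_PS19 nuclei. The Ly86 cluster held more PS19 nuclei than the 172 and 203 microglia tested here, so it took in nuclei from outside that class. Of the nuclei so named, those of PS19 lay mostly in the Ly86 cluster and those of WT and TG_PS19 in the Siglech cluster. The part of this in the Ptgds values, and in the microglial values of the other genes named here, was not tested.

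**Figure D3:**
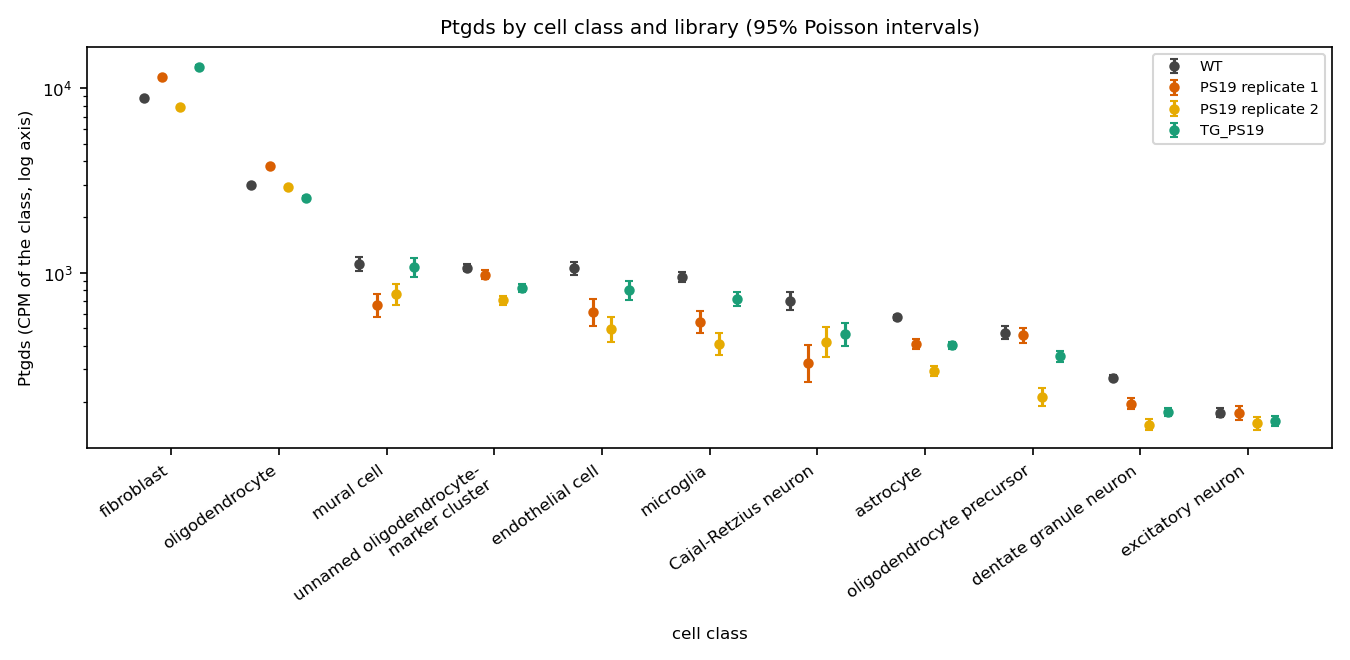
Ptgds in CPM (vertical axis, log scale) by cell class, ordered by mean level; points are libraries and bars 95% Poisson intervals. Fibroblasts and oligodendrocytes stand apart at the left, and in every other class both PS19 libraries lie below WT.

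In fibroblasts Ptgds was higher in TG_PS19, by 0.48 (SE 0.11, edgeR adjusted p 0.00401) against PS19 and by 0.63 (SE 0.13, edgeR adjusted p 0.000476) against WT. The first value was 0.77 without PS19 replicate 1 and 0.24 without PS19 replicate 2. The makeup of the fibroblasts differed too, with the cluster led by Nnat holding 30 of 851 WT and 26 of 340 TG_PS19 nuclei, and the cluster led by Slc47a1, low in Ptgds, 166 and 31. Within the cluster led by Lama1 the level was 10201 CPM in WT, 10644 and 7270 CPM in the PS19 pair and 11908 CPM in TG_PS19. Both fold changes depended on which TG_PS19 nuclei were counted. The 217 fibroblasts with Xist stood at 14313 CPM (13985 to 14646) and the 64 fibroblasts with Y-linked UMIs at 8533 CPM (8072 to 9013). The WT value lay inside the latter interval. With the Y-linked nuclei alone the values were −0.20 (edgeR adjusted p 0.569) and −0.05 (adjusted p 0.940). With a robust prior the edgeR adjusted p was 0.283 and 0.165. Genotype and the mix of sexes cannot be told apart here, since the other libraries held next to no Xist nuclei.

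Hpgds rose in TG_PS19 against PS19 in 3 classes, dentate granule neurons, excitatory neurons and astrocytes. Dentate granule neurons had 51.5 CPM (47.4 to 55.9) in WT, 39.7 and 35.3 CPM in the PS19 pair (37.5 ± 3.05) and 60.9 CPM (55.6 to 66.4) in TG_PS19. The gene fell in PS19 against WT by 0.45 (SE 0.13, edgeR adjusted p 0.0326) and rose in TG_PS19 against PS19 by 0.80 (SE 0.14, adjusted p 2.46e-07). The intervals of WT and TG_PS19 overlapped only at their ends, and TG_PS19 against WT did not pass, at 0.36 (edgeR adjusted p 0.127). The fall in PS19 was not called with doublets kept, at −0.42 (edgeR adjusted p 0.136), or with class sums thinned to equal depth, at −0.31 (adjusted p 0.439).

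Excitatory neurons had 39.3 CPM in WT, 36.5 and 35.3 CPM in the PS19 pair (35.9 ± 0.834) and 55.1 CPM (49.4 to 61.2) in TG_PS19. Here WT lay near the PS19 pair, and Hpgds rose in TG_PS19 against PS19 by 0.71 (SE 0.16, edgeR adjusted p 0.000653). Astrocytes had 16.7 CPM in WT, 12.8 and 11.4 CPM in the PS19 pair and 21.5 CPM in TG_PS19, a rise against PS19 of 1.01 (SE 0.26, edgeR adjusted p 0.00304). Oligodendrocytes, with 12.6 CPM in WT, 12.4 and 9.66 CPM in the PS19 pair and 19.99 CPM in TG_PS19, came to 0.92 (SE 0.25) and did not pass (edgeR adjusted p 0.0610). In microglia the same contrast gave 0.11 (SE 0.14), and a difference between classes was not tested.

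The Hpgds level of neurons was low beside that of microglia but not the lowest of the classes. Thinned to 1000 UMIs, 6.11% of WT, 4.57% and 4.38% of PS19 and 5.85% of TG_PS19 granule neurons had a Hpgds UMI, and WT oligodendrocytes gave 0.944%. Unthinned shares were 26.1% of WT granule neurons, at a median of 6453 UMIs, and 2.12% of WT oligodendrocytes, at 1833 UMIs. The WT and TG_PS19 granule shares run against their CPM, so no order was read from them. The 8 microglial markers summed in granule neurons to 131 CPM in WT and 165 CPM in TG_PS19, beside 104 and 110 CPM in PS19. The sum moved with Hpgds, but much of it lay in the highest marker of each library. This stood at 67.8 CPM for WT, 116 CPM for TG_PS19, and 60.8 and 68.3 CPM for the PS19 pair. How the other markers moved is not shown by the sum. In excitatory neurons the sum was 90.2 CPM in WT, 84.7 and 72.8 CPM in the PS19 pair and 103 CPM in TG_PS19, and in astrocytes it was 197 CPM, 142 and 123 CPM, and 162 CPM. In excitatory neurons the highest marker stood at 41.6 CPM for WT, 60.8 CPM for TG_PS19, and 35.8 and 36.1 CPM for the PS19 pair. The astrocyte sum of TG_PS19 lay below that of WT, while Hpgds there lay above its WT value. The part of these markers in the Hpgds result was not tested. With Y-linked TG_PS19 nuclei alone, the rise was 0.71 in granule neurons (edgeR adjusted p 0.00469) and 0.70 in excitatory neurons (adjusted p 0.0181). In astrocytes it was 0.82 and not called (edgeR adjusted p 0.166).

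**Figure D4:**
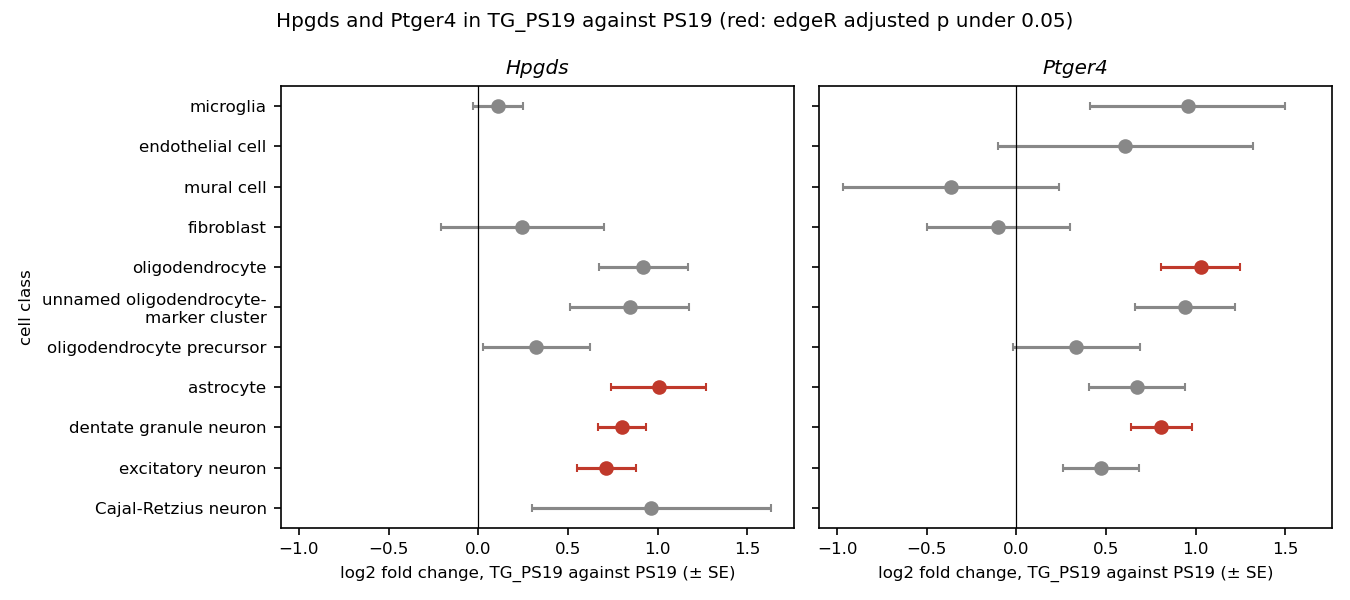
Log2 fold change of TG_PS19 against PS19 (horizontal axis, ± SE) by cell class for Hpgds (left) and Ptger4 (right); red points passed the edgeR test, and classes without a point did not pass the filter on low counts. Hpgds passed in astrocytes, dentate granule neurons and excitatory neurons, and Ptger4 in oligodendrocytes and dentate granule neurons.

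Ptges (chromosome 2, 30889471 to 30929863, minus strand), the inducible microsomal prostaglandin E synthase, was highest in fibroblasts. It had 43.2 CPM (34.1 to 54.0) in WT, 38.3 and 43.9 CPM in the PS19 pair and 19.3 CPM (10.8 to 31.8) in TG_PS19. The TG_PS19 interval lay below that of WT and overlapped those of both PS19 libraries. The log2 fold changes were −1.05 (SE 0.41) against PS19 and −1.09 (SE 0.42) against WT, and neither passed (edgeR adjusted p 0.267 and 0.227). Among Y-linked TG_PS19 fibroblasts the level was 33.3 CPM (10.8 to 77.8), from 5 UMIs. Loxl1, a gene of elastic fiber assembly, had the most similar pattern (r = 0.840).

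Among receptors, Ptger4 (chromosome 15, 5206661 to 5244187, minus strand), the EP4 receptor for prostaglandin E2, passed the filter in the most units. Its first class by the mean over groups, mural cells, had 43.8 CPM (26.4 to 68.5) in WT, 51.1 and 44.7 CPM in the PS19 pair and 35.7 CPM (16.3 to 67.7) in TG_PS19, and all 4 intervals overlapped. In TG_PS19 alone endothelial cells were higher, at 40.2 CPM. Ptger4 rose in TG_PS19 against PS19 in oligodendrocytes and in dentate granule neurons. Oligodendrocytes had 16.1 CPM (12.7 to 20.1) in WT, 13.3 and 17.8 CPM in the PS19 pair and 31.0 CPM (26.0 to 36.8) in TG_PS19. The rise was 1.03 (SE 0.22, edgeR adjusted p 0.0203), and it was 0.99 with Y-linked TG_PS19 nuclei alone (adjusted p 0.0474).

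Dentate granule neurons had 25.9 CPM in WT, 18.6 and 21.2 CPM of Ptger4 in the PS19 pair and 32.9 CPM (29.1 to 37.0) in TG_PS19, a rise of 0.81 against PS19 (SE 0.17, edgeR adjusted p 0.000103). Xist nuclei of TG_PS19 had 36.1 CPM (31.3 to 41.4) and Y-linked nuclei 20.5 CPM (14.6 to 28.0), which lay within the PS19 range. With the Y-linked nuclei alone the value was 0.11 and not called (edgeR adjusted p 0.893), and genotype and sex cannot be told apart. The gene overlaps Ttc33 on the opposite strand, so without knowledge of the strand used in counting the Ptger4 values are uncertain.

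Ptger3 (chromosome 3, 157566892 to 157645888, plus strand), the EP3 receptor, was highest in mural cells, too low there for the test, where it had 25.4 CPM (12.7 to 45.4) in WT, 14.6 and 16.0 CPM in the PS19 pair and 23.8 CPM (8.73 to 51.8) in TG_PS19. Microglia had 20 UMIs in WT, 2 and 4 in PS19 and 17 in TG_PS19, or 20.3 CPM (12.4 to 31.4), 4.99 CPM (0.605 to 18.0), 7.28 CPM (1.98 to 18.7) and 23.6 CPM (13.7 to 37.7). Both PS19 values lay below WT and TG_PS19, with overlapping intervals. Neither contrast passed the edgeR test. PS19 against WT gave −1.66 (SE 0.81, adjusted p 0.380), and TG_PS19 against PS19 gave 1.94 (SE 0.83, adjusted p 0.230). The most similar patterns were those of Adap2os (r = 0.892) and Adap2 (0.883).

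Ptgfr (chromosome 3, 151796502 to 151837630, minus strand), the receptor for prostaglandin F2α, was highest in fibroblasts by the mean over groups, with 24.7 CPM (17.9 to 33.1) in WT, 22.5 and 31.4 CPM in the PS19 pair and 20.6 CPM (11.8 to 33.4) in TG_PS19. All 4 intervals overlapped. In TG_PS19 alone mural cells were higher, at 27.7 CPM. The fibroblast cluster led by Nnat had the highest values, at 110 CPM in WT, 76.1 and 95.3 CPM in the PS19 pair and 107 CPM in TG_PS19, from 5 to 9 UMIs a library. That cluster was thus first within fibroblasts for both Ptgds and Ptgfr, and it also had Ptger3 at 98.0 CPM in WT, 45.6 and 31.8 CPM in the PS19 pair and 93.6 CPM in TG_PS19. Microglia had 0 Ptgfr UMIs in every library, with 3 counts equal to between 3.05 and 7.49 CPM.

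A list of 31 other genes of arachidonate release, prostanoid transport, inactivation and reception and of the leukotriene branch was read beside these. Of them 24 could be tested, in 140 pairs of gene and unit. In PS19 against WT 2 pairs were higher and 3 lower, in TG_PS19 against PS19 2 were higher and 2 lower, and in TG_PS19 against WT 0 were higher and 6 lower. Over all genes and units the shares called were 2.35%, 4.17% and 2.11%. The median log2 fold change of these pairs was −0.03, −0.02 and −0.08.

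Upstream of the cyclooxygenases, Pla2g4a, the cytosolic phospholipase that releases arachidonic acid, had 414 CPM in WT microglia, 282 and 253 CPM in the PS19 pair and 346 CPM in TG_PS19. It fell in PS19 against WT by 0.63 (SE 0.17, edgeR adjusted p 0.00823). In the finer clustering given above for Ptgds, PS19 nuclei named microglia lay mostly in the Ly86 cluster. Those of WT and TG_PS19 lay mostly in the Siglech cluster. The part of this split in microglial Pla2g4a, and in microglial Akr1b3 and Alox5ap below, was not tested. In fibroblasts Pla2g4a fell in TG_PS19 against WT by 0.85 (edgeR adjusted p 0.0170), and in oligodendrocytes it rose in TG_PS19 against PS19 by 0.75 (adjusted p 0.0363). Akr1b3, an aldose reductase, rose in microglia of TG_PS19 against PS19 by 1.34 (edgeR adjusted p 0.0432), from 11 and 10 UMIs to 39. Against WT, Daglb fell in dentate granule neurons of TG_PS19 by 0.54 (edgeR adjusted p 0.00766) and Pla2g6 in excitatory neurons by 1.37 (adjusted p 0.00529).

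Of the transport and inactivation genes, Abcc4, an exporter of prostaglandins, moved in different directions by class. In astrocytes it had 42.6 CPM in WT, 67.4 and 74.1 CPM in the PS19 pair and 40.5 CPM in TG_PS19, a rise of 0.71 in PS19 (edgeR adjusted p 0.000436) and a fall of 0.64 in TG_PS19 against PS19 (adjusted p 0.00374). The differing share of the Myoc and Gfap cluster applies to these values, to Hpgd below and to astrocyte Hpgds above. Its part was not tested. In fibroblasts Abcc4 had 126 CPM in WT, 58.6 and 60.6 CPM in the PS19 pair and 46.3 CPM in TG_PS19. It fell by 1.05 in PS19 (edgeR adjusted p 0.000989) and by 1.37 in TG_PS19 against WT (adjusted p 0.00127). In oligodendrocytes Abcc4 fell in TG_PS19 against PS19 by 2.01 (edgeR adjusted p 0.0338), from 34 and 31 UMIs to 9. Hpgd, which inactivates prostaglandins, had 2 UMIs in WT astrocytes, 14 and 7 in PS19 and 3 in TG_PS19, and was called higher in PS19 against WT (edgeR adjusted p 0.0125), though its fold change rests on few counts. Slco2a1, a prostaglandin uptake carrier, fell in excitatory neurons of TG_PS19 against WT by 1.52 (edgeR adjusted p 0.00547).

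In the leukotriene branch, Alox5ap, the activating protein of 5-lipoxygenase, had 73.2 CPM in WT microglia, 27.5 and 31.0 CPM in the PS19 pair and 56.8 CPM in TG_PS19, and fell in PS19 by 1.30 (SE 0.36, edgeR adjusted p 0.00993). Ltc4s, the leukotriene C4 synthase, had 299 CPM in WT microglia, 240 and 229 CPM in the PS19 pair and 164 CPM in TG_PS19, and fell in TG_PS19 against WT by 0.80 (edgeR adjusted p 0.0357). The other prostanoid receptors gave 3 genes that could be tested, with 0 of 6 pairs called in each comparison by edgeR and 0, 0 and 2 at an unadjusted p under 0.05.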

How the data were processed

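The deposited values are raw UMI counts per gene and nucleus that the authors made with Cell Ranger 7.1.0, per the submitters' processing notes. The genome build, strand setting and intron counting are not given in the sources used here. The 10 genes, the lists and the class names were chosen with earlier results of these data known.

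Nuclei were kept with at least 500 UMIs, 300 genes and at most 5% mitochondrial UMIs. Doublets were scored per library by simulation, as Scrublet does, and a top share of 0.8% per 1000 nuclei was removed, 1302, 172, 193 and 755 nuclei in all. In WT this also took small clusters: all 40 choroid plexus, all 18 ependymal and 12 of 14 T-cell nuclei, besides smooth muscle. Ptgis in mural cells is therefore given with and without these nuclei. Shares called thinned were taken after drawing 1000 UMIs from each nucleus. The limit for a count of 0 is 3 counts.

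Clusters came from 2000 variable genes, 30 principal components and the Leiden method (leidenalg 0.10.2, resolution 1.0), which gave 33. A cluster was named with 4 raised markers, or with 50% of its list and at least 3, out of 19 lists. This rule, the joining of classes and the unit kept without a name were settled after clusters had been seen. Another 4 clusters had no name and were not tested. They held 769 nuclei of low UMI counts (655 from TG_PS19), 286 nuclei (285 from WT), the 214 nuclei led by Apobec1 and 93 nuclei led by Sfta3-ps. Inhibitory neurons had 49 nuclei in PS19 replicate 1 and were not tested.

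Summed counts were fitted per class with edgeR 4.0.16 (R 4.3.3, low-count filter, TMM scaling, quasi-likelihood test, two-sided, Benjamini-Hochberg within a class at 0.05), all 4 libraries together, with 1 residual degree of freedom. All 10 genes are named in their highest class and wherever called. Listed pathway genes are named where called. Alternatives were DESeq2 1.42.0, other scalings, filters, clustering, depth, doublets, prior, sex of nuclei and left-out replicates. Tested on simulated data for PS19 against WT, the fit recovered 69 of 187 genes changed by 1 on the log2 scale in microglia and 155 of 188 changed by 2. In mural cells it recovered 10 of 184 and 140 of 181. False calls numbered 7 and 9 in microglia and 1 and 5 in mural cells. All libraries were simulated with the same spread, so the assumption about the lone libraries was not tested. Positions are from GENCODE M21 (GRCm38), which held 54349 of 55401 mouse identifiers.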

Additional observations from a re-analysis of the deposited data

Results flagged for a closer look

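In the WT library, 10 Ptgis UMIs lay in smooth muscle nuclei with high doublet scores, which the main tests left out. They lay above the limit of 3 counts that a count of 0 allows. The 7 WT smooth muscle nuclei with other scores had 0 Ptgis UMIs, and those of PS19 had 24 and 18. Whether the high-scoring nuclei are doublets was not tested.

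Ptgds in fibroblasts of TG_PS19 against WT differed by the sex call of the nuclei. Nuclei with Xist stood at 14313 CPM, above the WT value of 8837 CPM. Nuclei with Y-linked UMIs stood near it at 8533 CPM, and with them alone the log2 fold change was −0.05. In the fibroblast cluster led by Lama1 the levels were 13135 and 8079 CPM, in the cluster led by Slc47a1 they were 3274 and 2021 CPM, and in the cluster led by Nnat, with 18 and 3 nuclei, the order was reversed at 33137 and 43016 CPM. The difference was not tested, as each call comes from 1 library.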

How the results depend on the processing

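Shares over all genes are given only for the main setting. The number of called pairs moved with the setting. In PS19 against WT it was 5, and 0 with DESeq2, 8 at resolution 2.0 and 2 with class sums thinned to equal depth. In TG_PS19 against PS19 it was 8, and 0 with DESeq2, 13 with doublets kept and 5 with Y-linked TG_PS19 nuclei alone. In TG_PS19 against WT it was 2, and 0 with DESeq2, 4 with library totals, 1 with Y-linked nuclei alone and 5 with Xist nuclei alone, an alternative chosen after seeing the data. Ptgds in fibroblasts turned to −0.20 against PS19 and −0.0487 against WT with Y-linked nuclei alone. Ptgis in mural cells was 16.4 CPM in WT with doublets kept, 0 CPM in both PS19 libraries without the smooth muscle cluster (also chosen after seeing the data), and 0 CPM in TG_PS19 with Y-linked nuclei alone. The causes of the other moves were not tested. Without either PS19 library in turn, the mean PS19 level of Ptgis in mural cells was 57.4 to 87.6 CPM. Leaving out a PS19 library left no residual degree of freedom, so counts of calls have no such value.

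Of 167 alternative values of the 15 called fold changes, 134 stayed the same, 29 kept direction and lost the call, 2 moved and 2 reversed. The same means direction and call kept. Values with a PS19 library left out have no call, and there it means a shift below the SD of the leave-out values. Thinned class sums left Ptgds uncalled in microglia (−1.09 and 0.68) and endothelial cells (−0.90) with fold changes close to the main ones. Of 148 alternative levels, 125 stayed within the counting interval. Library totals moved the median of all genes by up to −0.17 (astrocytes, TG_PS19 against PS19).

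No paired analysis was possible because only the PS19 libraries carry replicate numbers. Depth limits the smooth muscle cluster of WT and TG_PS19, Ptger3 outside microglia and excitatory neurons, and Ptgfr outside fibroblasts.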
